A study of Mus musculus with 4 samples.

Results

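Cells of the E14.5 mouse knee region were compared between 2 libraries that differ in the label for 1 allele of Glut3, a glucose transporter gene. Cells were chosen by their own counts of 3 genes: cartilage cells held 2 or more UMIs (unique molecular identifiers, each 1 captured RNA molecule) of Matn1 and Acan together, and mesenchyme cells held 1 or more UMIs of Prrx1 with Matn1 and Acan at 1 or less. Together 16665 of the 22569 cells kept in the 2 libraries were members, 7958 in 1 library and 8707 in the other, out of 44320 cells kept in the 4 libraries of the series. The rule kept cells with 200 to 6000 genes and at most 10% of UMIs from genes of the mitochondrial genome.

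The presumptive knee joint of mouse hindlimbs was cut out at E14.5 (embryonic day), digested with collagenase and sequenced as 1 droplet library per genotype. The first mutant library is labelled Prx1cre;Glut1f/f;Glut3f/+ and keeps 1 unfloxed Glut3 allele, and the second is labelled Prx1cre;Glut1f/f;Glut3f/f, the double conditional knockout (DCKO). Both share the Cre transgene, 2 floxed Glut1 alleles and at least 1 floxed Glut3 allele, so the labels differ by the second Glut3 allele only. An E14.5 library labelled No cre is given as background beside them. No treatment is labelled. Prx1Cre acts in limb bud mesenchyme and its descendants, cartilage among them, and not in blood, endothelium or the muscle lineage. Those cells in the same libraries should thus carry unrecombined alleles, but recombination was not measured. The floxed Glut3 line came from C57BL/6N sperm, and the labels give neither the strain of the libraries nor the number of embryos pooled in each. With 1 library per genotype there are no replicates: each interval below covers counting error only, and a difference between genotypes cannot be told apart from a difference between libraries.

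Glut1 (gene Slc2a1) and Glut3 (gene Slc2a3) are carriers that let glucose enter the cell, where glycolysis breaks it down. The cartilage of the growing limb has no blood vessels and leans on glycolysis, and the interzone, the band of flattened cells that marks a future joint, forms between the cartilage elements. When amino acids run short, or when unfolded protein collects in the endoplasmic reticulum (ER), cells slow translation and make the transcription factor ATF4, while ER stress also turns on chaperones through ATF6 and XBP1.

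Levels are given as CPM (counts per 1000000), the share of a gene in all UMIs of the cell group, in the order control, one-allele-labelled, DCKO-labelled wherever 3 values follow each other. Ratios are log2 of DCKO-labelled over one-allele-labelled with a 95% interval, and a gene was counted as higher or lower when it lay 1.5-fold or more to that side.

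Slc2a1, labelled as floxed in both mutants, had more UMIs per total in both mutant libraries than in the control. In cartilage cells Slc2a1 stood at 78.9 CPM (76.6 to 81.3) in the control, 452 (447 to 457) in the one-allele-labelled and 495 (490 to 500) in the DCKO-labelled library, a log2 ratio of 0.13 (0.11 to 0.15) between the mutants. In mesenchyme cells it stood at 33.0, 122 and 162 CPM, with a log2 ratio of 0.41 (0.31 to 0.51). Both mutants were thus far above the control, and close to each other. The labels do not say which exons the floxed alleles lose. Counts come from the 3′ ends of transcripts, which may lie outside the deleted part, and then the UMI count of a floxed gene checks nothing about its deletion.

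Slc2a3, the gene whose label differs, had few UMIs everywhere. Cartilage cells held 158, 258 and 111 Slc2a3 UMIs, or 2.87 CPM (2.44 to 3.36), 4.19 (3.69 to 4.73) and 1.64 (1.35 to 1.98), a log2 ratio of -1.35 (-1.69 to -1.02). The DCKO-labelled cartilage cells were thus lowest, 2.55-fold under the one-allele-labelled ones, yet Slc2a3 was not at 0. Mesenchyme cells held 66, 56 and 37 Slc2a3 UMIs, or 6.01, 4.44 and 4.06 CPM, with a log2 ratio of -0.13 (-0.77 to 0.50). No difference in mesenchyme could be told from counting error. Slc2a3 was under the 20 CPM minimum for the comparison across genes in both cell groups.

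Cells outside the known reach of Prx1Cre were used as a reference for the 2 genes. Muscle lineage cells (223, 328 and 90 cells, chosen by muscle markers) held Slc2a3 at 2.03, 3.93 and 39.6 CPM and Slc2a1 at 22.3, 27.7 and 44.1. Endothelial cells (37, 85 and 66 cells) held Slc2a1 at 63.4, 91.0 and 82.7 CPM, and macrophages (62, 80 and 67 cells) at 14.7, 36.7 and 56.0. The factor between mutants and control was smaller in these cell types than in cartilage cells, and the intervals overlapped that of the control in endothelial cells of both mutants and in muscle lineage cells and macrophages of the one-allele-labelled library. Slc2a3 stood at 8.38, 20.6 and 30.5 CPM in macrophages and at 3.52, 4.01 and 0 (upper limit 6.78) in endothelial cells. It was thus high in the DCKO-labelled library alone in muscle lineage cells, in the library with the fewest such cells. In macrophages it rested on 4, 14 and 12 UMIs, and the intervals of the mutants overlapped that of the control. Of the 11 members of the Slc2a family counted, Slc2a1 was the 1 that reached the minimum level in cartilage cells, and the family summed to 106, 484 and 524 CPM there. Slc2a6, which codes for another transporter of the family, stood at 0.109, 0.243 and 1.05 CPM. Txnip, which restrains glucose uptake and follows glucose through the factor MondoA, stood at 23.2, 2.01 and 2.25 CPM in cartilage cells and 29.8, 10.8 and 15.6 in mesenchyme cells. Arrdc4, its relative, stood at 10.8, 1.83 and 1.89 CPM in cartilage cells. Both were low in the 2 mutants and alike between them in cartilage cells, with log2 ratios of 0.16 (-0.19 to 0.51) and 0.05 (-0.33 to 0.42). The 4 genes of the MondoA list summed to 47.8, 17.7 and 18.1 CPM in cartilage cells and 60.1, 32.0 and 39.2 in mesenchyme cells. None of them reached the minimum level in either mutant library.

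Cartilage cells made up 59.8% of kept cells in the control (5565 of 9305; 58.8 to 60.8), 54.0% in the one-allele-labelled (6088 of 11264; 53.1 to 55.0) and 63.1% in the DCKO-labelled library (7134 of 11305; 62.2 to 64.0). Mesenchyme cells made up 16.3% (1515 cells; 15.5 to 17.0), 16.6% (1870; 15.9 to 17.3) and 13.9% (1573; 13.3 to 14.6). The DCKO-labelled library thus had the largest share of cartilage cells and the smallest share of mesenchyme cells. With cells thinned to 3000 UMIs, and the 861, 1167 and 1415 cells under that depth left out, the shares were 55.8%, 50% and 61.4% for cartilage and 14.4%, 14.2% and 12.3% for mesenchyme, so the order of the mutants was the same among these deeper cells. These shares follow from the genes of the rule and support nothing further, and the part of dissection was not tested. The cells in neither group numbered 2225, 3306 and 2598.

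Matn1 and Acan, matrix proteins of cartilage, and Prrx1, a transcription factor of limb mesenchyme, set the groups, so their levels are a description and not a finding. Cartilage cells held Matn1 at 1899, 1615 and 1725 CPM and Acan at 899, 983 and 935, and mesenchyme cells held Prrx1 at 422, 415 and 483. The median cartilage cell held 21, 17 and 15 UMIs of Matn1 and Acan together, and the median mesenchyme cell 2 of Prrx1 in each library. At the threshold, 839, 1021 and 870 cells held exactly 1 UMI of Matn1 and Acan and 369, 460 and 521 held exactly 2. Col2a1, the main collagen of cartilage, stood at 843, 877 and 1410 CPM in cells with 1 such UMI and at 1637, 1778 and 2449 in cells with 2. The level thus climbed on both sides of the threshold. In cells with none, Col2a1 stood at 271, 261 and 513 CPM, and the DCKO-labelled library was thus the highest on both sides of the threshold. For Prrx1, 604, 785 and 627 mesenchyme cells held exactly 1 UMI and 911, 1085 and 946 held 2 or more.

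The labels call all cells interzone cells, but cartilage cells, the larger group, held far more RNA of cartilage genes than of interzone genes. Cells with interzone markers were not counted. Of 12 cartilage genes outside the rule, each was detected, and they summed to 18001, 16352 and 14987 CPM in cartilage cells against 1542, 1371 and 2071 in mesenchyme cells, with Col2a1 the most abundant. The 10 mesenchyme genes summed to 1922, 1630 and 1425 CPM in cartilage cells and 5516, 6208 and 5796 in mesenchyme cells. The 5 interzone genes that the study used (Gdf5, Osr2, Sfrp2, Creb5, Tgfbi) summed to 401, 406 and 225 CPM in cartilage cells and 1599, 1002 and 800 in mesenchyme cells. The groups are therefore called cartilage and mesenchyme cells here, after their markers.

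Sex was alike in the mutants. Xist, the RNA of the inactive X chromosome, was found in 0.172%, 92.2% and 91.2% of cells and Y-linked genes in 65.9%, 0.0355% and 0.0265%, so both mutant libraries held female cells and the control male cells. The lowest of these shares show how seldom a UMI of these genes was found in a library of the other sex. The mutant libraries shared 34 cell barcodes, 30 of them among kept cells. Kept cells held a median of 7279, 6757 and 6379 UMIs and 2.40%, 2.83% and 2.31% mitochondrial UMIs.

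In cartilage cells the DCKO-labelled library had more RNA of ER chaperones and of ATF4 targets than the one-allele-labelled library, and less RNA of joint formation genes, of Bmp targets and of Tgfb targets. Of 5605 genes compared (at 20 CPM or more in either mutant and 20 UMIs or more in both together), 48 were higher (0.856%) and 92 lower (1.64%), 140 in all (2.50%). The 5th and 95th percentiles of the log2 ratio were -0.38 and 0.24 and the median -0.03. A gene that reached 20 CPM in 1 mutant library only tends to be higher there, so counts and medians of compared genes lean on the minimum level, while the summed levels of a list cover all its members. Of the 5605 genes 5241 reached it in both, and of these 35 were higher and 52 lower. Of the 48 higher genes, 30 were on the ATF4 or ER list, against 61 of all 5605. Of the 35 higher genes at 20 CPM in both mutants, 12 were on the ATF4 list and 13 on the ER list. Of all 5241 such genes, 29 and 25 were on these lists. Herpud1 is on both lists. The gene lists were chosen with earlier results of these data known, so these shares are not independent of the data. With scaling by TMM (trimmed mean of M values) the median of all genes moved from -0.03 to 0.05 and the counts were 59 higher and 61 lower, so 49.2% of the genes past the fold were higher against 34.3% with CPM. How the 140 genes split between higher and lower thus rests on the scaling, while the medians of the ER, ATF4, joint formation, Bmp target and Tgfb target lists kept their side under both.

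**Figure D1:**
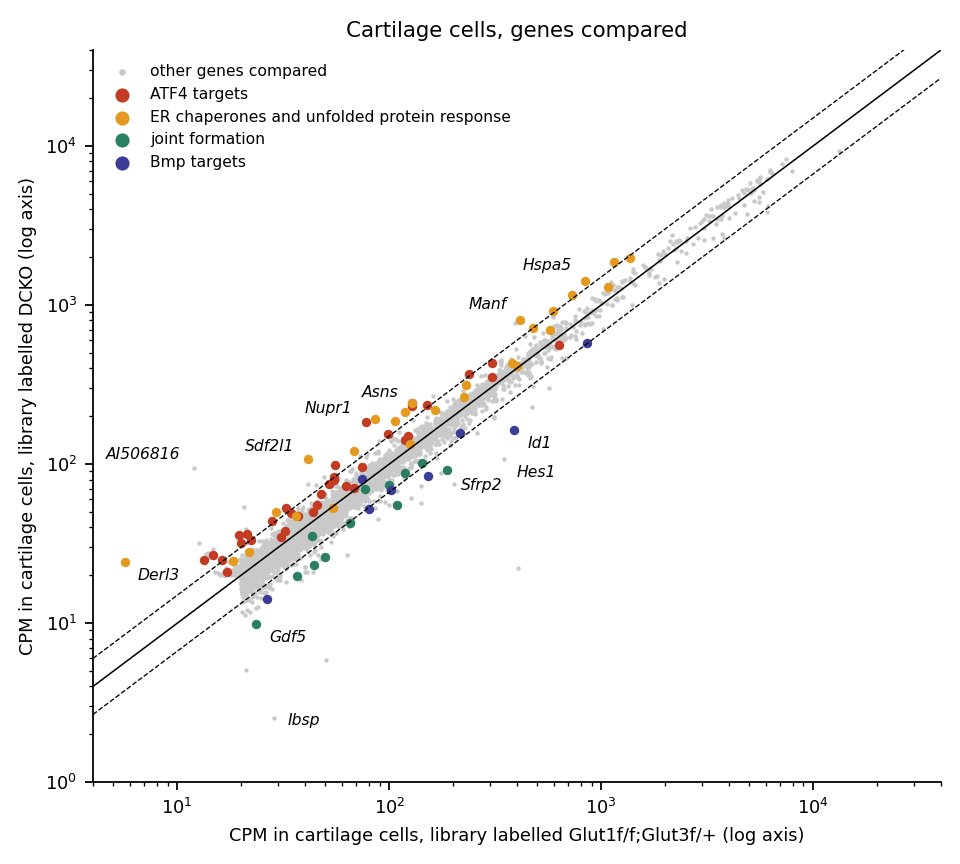
CPM of each compared gene in cartilage cells of the one-allele-labelled library (horizontal) and the DCKO-labelled library (vertical), both on log axes, with gene lists in colour, a solid line at equal levels and dashed lines at 1.5-fold. Above the upper dashed line lie 48 genes, 14 of 27 ER and 17 of 35 ATF4 genes among them, and below the lower lie 92, with 7 of 12 joint formation and 4 of 8 Bmp genes.

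Genes of the ER chaperone and unfolded protein response list were higher as a group. All 27 members were compared, 14 were 1.5-fold or more higher and none lower, 26 lay above 0, and the median log2 ratio was 0.60 against -0.03 over all genes. Of the 25 at 20 CPM in both mutants 13 were higher, with a median of 0.60, and 2 reached that level in the DCKO-labelled library only. Their RNA summed to 9267, 9453 and 13921 CPM. The 2 other libraries were thus alike in sum, and the DCKO-labelled library alone was high. Derl3, which helps to pull misfolded protein out of the ER, stood at 0.654, 5.65 and 24.2 CPM, a log2 ratio of 2.10 (1.93 to 2.27). Sdf2l1, a partner of ER chaperones, stood at 22.4, 41.4 and 107 CPM (1.37; 1.30 to 1.43). Creld2, an ER stress gene, stood at 49.7, 85.5 and 192 CPM (1.17; 1.12 to 1.22). These 3 climbed from control to one-allele-labelled to DCKO-labelled cells. Manf, a secreted ER stress protein, stood at 293, 416 and 800 CPM (0.94; 0.92 to 0.97).

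Other members of the ER list are given for their roles, and were chosen after their values were seen. Hspa5 codes for BiP, the main chaperone of the ER, and stood at 712, 836 and 1408 CPM, a log2 ratio of 0.75 (0.74 to 0.77). Hsp90b1, the ER member of the Hsp90 family, stood at 1121, 1145 and 1875 CPM (0.71; 0.70 to 0.72). Calr, the chaperone of glycoproteins, stood at 456, 590 and 922 CPM (0.64; 0.63 to 0.66). Hsp90b1 was alike in the control and one-allele-labelled cells, and each of the 3 was highest in DCKO-labelled cells. Dnajc3, a co-chaperone of BiP, stood at 109, 119 and 212 CPM (0.84; 0.80 to 0.88). Pdia6, which forms disulphide bonds, stood at 757, 729 and 1161 CPM (0.67). Xbp1, whose mRNA is spliced in ER stress (splicing is not seen in these counts), stood at 118, 125 and 133 CPM (0.09; 0.04 to 0.13). P4hb, the subunit of collagen prolyl hydroxylase that is also a disulphide isomerase, stood at 402, 401 and 416 CPM (0.05; 0.03 to 0.08). Xbp1 and P4hb were thus near the level of all genes.

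The promoters of these genes are shown because 7 of the ER genes past the fold hold the same letters. The ER stress element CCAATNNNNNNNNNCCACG (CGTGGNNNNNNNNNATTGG on the other strand) was searched on both strands from 250 bases before to 50 after the start of transcription, in RefSeq promoters of build GRCm38.p6. It was in 39 of 32851 promoters (0.119%), or 37 of 27025 genes (0.137%), in 9 of the 24 ER genes that had a promoter in the table (37.5%), in 7 of the 12 of those that were higher (58.3%) and in 0 of 38 ATF4 genes. Canx and Syvn1, the 2 others, held it with log2 ratios of 0.23 and 0.37. The ER list was put together from known ER stress genes, some of them known by this element, so the share is not independent of the choice of genes, and a match is a description, not a site or a cause. Capitals mark the element in 4 of the promoters, each read along the gene's own strand, at chr2:34772010-34772058 (plus strand, 47 to 65 bases before the start of Hspa5), chr15:88819505-88819553 (plus strand, 108 to 126 before Creld2), chr10:75893227-75893275 (plus strand, 138 to 156 before Derl3) and chr10:86705623-86705671 (minus strand, 194 to 212 before Hsp90b1).
Hspa5: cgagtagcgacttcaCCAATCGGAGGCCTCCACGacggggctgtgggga
Creld2: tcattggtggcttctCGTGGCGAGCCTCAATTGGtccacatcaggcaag
Derl3: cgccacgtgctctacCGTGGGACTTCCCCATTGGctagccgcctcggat
Hsp90b1: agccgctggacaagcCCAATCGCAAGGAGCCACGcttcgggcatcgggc

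Targets of ATF4, which supply the cell with amino acids and adjust translation, were higher too. Of 44 members 35 were compared, 17 were higher and none lower, 34 lay above 0, and the median log2 ratio was 0.55. Of these, 6 reached 20 CPM in the DCKO-labelled library only, and among the other 29 there were 12 higher, with a median of 0.52. Their RNA summed to 2545, 3270 and 4405 CPM, more at each step from control to DCKO-labelled cells. Nupr1, a small stress-induced nuclear protein, stood at 10.5, 77.7 and 184 CPM, a log2 ratio of 1.24 (1.19 to 1.29). Slc7a3, a carrier of arginine and lysine, stood at 1.65, 13.3 and 25.0 CPM (0.91; 0.79 to 1.03). Cth, which makes cysteine, stood at 6.85, 19.6 and 35.7 CPM (0.87; 0.77 to 0.97). Asns, which makes asparagine, stood at 44.8, 128 and 231 CPM (0.85; 0.81 to 0.89). In each of these 4 the control was low, the one-allele-labelled library in the middle and the DCKO-labelled library high. Herpud1, on this list and the ER list, stood at 80.3, 128 and 243 CPM (0.92; 0.89 to 0.96).

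Further ATF4 genes were chosen after their values were seen, and their patterns varied. Atf5, a factor made under ATF4, stood at 19.4, 55.7 and 98.3 CPM (0.82), and Trib3, a feedback inhibitor of the response, at 6.05, 14.8 and 26.8 (0.86). Eif4ebp1, a brake on cap-dependent translation, stood at 80.2, 238 and 367 CPM (0.62). Ddit3 codes for CHOP and stood at 20.7, 21.4 and 36.4 CPM (0.77), so it was alike in control and one-allele-labelled cells. Psph, the last step of serine synthesis, stood at 18.5, 32.7 and 53.1 CPM (0.70). Got1, an aspartate aminotransferase, stood at 13.7, 19.9 and 31.9 CPM (0.68). Phgdh, the first step of serine synthesis, stood at 259, 305 and 430 CPM (0.50) and was not past the fold. Atf4 mRNA itself, which is controlled mainly in translation, stood at 335, 305 and 352 CPM (0.21; 0.18 to 0.23). Slc38a2, an amino acid carrier, stood at 611, 630 and 559 CPM (-0.17) and was the 1 compared member under 0.

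The amino acid response element TGATGCAA (TTGCATCA on the other strand), the letters that ATF4 binds with C/EBP partners, was searched the same way. It was in 294 promoters (0.895%), or 279 genes (1.03%), in 11 of 38 ATF4 genes with a promoter (28.9%), in 3 of the 12 higher ones (25.0%) and in 1 of 24 ER genes (4.17%), Herpud1, which is on both lists. So the higher members did not hold it more often than the list as a whole, and the difference was not tested. Slc7a11, Chac1 and Fgf21 also held it, with log2 ratios of 0.98, 0.75 and 0.62, but were not among the genes compared. The same limits apply to this element. It is shown, in capitals, for the 3 higher genes, at chr7:126625558-126625595 (minus strand, 103 to 110 bases before the start of Nupr1), chr8:94386302-94386339 (plus strand, 105 to 112 before Herpud1) and chr19:43524685-43524722 (minus strand, 95 to 102 before Got1).
Nupr1: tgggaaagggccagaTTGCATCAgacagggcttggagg
Herpud1: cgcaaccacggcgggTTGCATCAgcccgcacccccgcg
Got1: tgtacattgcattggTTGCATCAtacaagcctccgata

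Aminoacyl-tRNA synthetases, which load tRNAs with amino acids, had a median log2 ratio of 0.18 with 19 of 20 compared and none past the fold, and summed to 1266, 1551 and 1750 CPM. Heat shock genes, the chaperones of the cytosol, had 1 of 11 compared genes higher and a median of 0.21, and summed to 7575, 6803 and 7888 CPM. The gene past the fold was Hspa1a, an inducible Hsp70, at 9.50, 13.7 and 27.2 CPM (0.99). It reached 20 CPM in the DCKO-labelled library only, and of the 9 heat shock genes at that level in both mutants none was higher. The DCKO-labelled cells thus had slightly more RNA of both lists than the one-allele-labelled cells, and for heat shock genes they were close to the control.

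Genes outside these lists were among the largest rises as well. Tnni1, a troponin of slow muscle, stood at 10.1, 20.6 and 54.1 CPM (1.40; 1.30 to 1.49), although the 9 skeletal muscle markers summed to 21.8, 48.2 and 5.35 CPM and were lowest in DCKO-labelled cells. Cdk2ap2, a partner of CDK2, stood at 6.94, 12.6 and 31.8 CPM (1.33). Adm2, a peptide hormone of the calcitonin family, stood at 1.82, 14.7 and 29.3 CPM (0.99). These 3 shared the order of the ATF4 genes, with the control lowest. Mid1, a ubiquitin ligase of microtubules, stood at 19, 13.9 and 27.5 CPM (0.98). The largest ratio belonged to AI506816, an RNA whose role is not known, at 94.6, 12 and 94.2 CPM (2.97; 2.86 to 3.08) in cartilage cells and 71.9, 8.48 and 70.8 (3.06) in mesenchyme cells. There the control and DCKO-labelled libraries were alike and the one-allele-labelled library stood apart.

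Joint formation genes were lower in DCKO-labelled cartilage cells. Of 20 members 12 were compared, 7 were lower and none higher, all 12 lay under 0, and the median log2 ratio was -0.76, with sums of 1096, 1028 and 660 CPM. Of these, 2 reached 20 CPM in the one-allele-labelled library only, Gdf5 and Htra1, and among the other 10 there were 5 lower, with a median of -0.55. The control and the one-allele-labelled library were alike in sum, and the DCKO-labelled library was low. Of the 5 interzone genes, all of them members of that list and named by the study from control cells of this series, 4 were lower and the median was -0.94. Gdf5, a Bmp family ligand that marks joint progenitors, stood at 21.5, 23.6 and 9.88 CPM, a log2 ratio of -1.26 (-1.39 to -1.12). Sfrp2, a secreted modulator of Wnt signals, stood at 187, 188 and 92.1 CPM (-1.03; -1.07 to -0.98). Osr2, a zinc finger factor of joint cells, stood at 45.6, 44.2 and 23.1 CPM (-0.94; -1.03 to -0.85). Creb5, a factor that promotes lubricin in articular cartilage, stood at 49.1, 50 and 26.0 CPM (-0.94). Each of these 4 was alike in the control and one-allele-labelled library and lower by 1.5-fold or more in the DCKO-labelled one.

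Other members of the list differed by varied amounts. Gas1, a hedgehog co-receptor, stood at 137, 109 and 55.5 CPM (-0.97), and Htra1, a secreted protease, at 51.5, 36.7 and 19.7 (-0.90). Sulf1, which trims heparan sulphate, stood at 64.8, 65.2 and 42.4 CPM (-0.62), and with TMM it was no longer past the fold. Tgfbi, a matrix protein induced by Tgfb, stood at 98.6, 100 and 74.4 CPM (-0.43), and Barx1, a homeobox factor, at 149, 119 and 87.4 (-0.45). Wnt4, a Wnt ligand of the joint, stood at 58.5, 76.9 and 69.3 CPM (-0.15), so it was not low in the DCKO-labelled library. Prg4, which codes for lubricin, was at 1.11, 0.617 and 0.503 CPM, and Wnt9a at 1.82, 2.09 and 1.60, both under the minimum level.

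Bmp targets were lower too. Of 12 members 8 were compared, 4 were lower and none higher, the median log2 ratio was -0.59, and the sums were 2020, 1913 and 1209 CPM. Without Msx1, which reached 20 CPM in the one-allele-labelled library only, 3 of 7 were lower, with a median of -0.57. Id1, an inhibitor of bHLH factors and an early Bmp target, stood at 456, 388 and 163 CPM, a log2 ratio of -1.25 (-1.28 to -1.22). Smad7, the feedback inhibitor of Bmp and Tgfb receptors, stood at 193, 153 and 84.0 CPM (-0.87). Msx1, a homeobox factor, stood at 15.5, 26.6 and 14.2 CPM (-0.91), so here the control was as low as the DCKO-labelled library. Id4 stood at 79.4, 80.0 and 51.9 CPM (-0.62), which TMM scaling took under the fold, and Id3 at 889, 855 and 578 (-0.57). Id2 stood at 220, 216 and 157 CPM (-0.46), and Nog, the Bmp antagonist noggin, at 74.4, 102 and 68.6 (-0.56). Bambi, a decoy receptor, stood at 75.1, 74.4 and 80.5 CPM (0.11). The Id genes and Smad7 were thus lowest in the DCKO-labelled library, and Bambi was not.

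Tgfb targets had 14 of 18 members compared, 5 lower and none higher, all 14 under 0 and a median log2 ratio of -0.39, with sums of 2452, 2016 and 1572 CPM. Of the 12 at 20 CPM in both mutants 3 were lower, with a median of -0.35. Klf10, an early Tgfb target, stood at 59.7, 47.8 and 25.2 CPM (-0.92), and Bhlhe40, a bHLH repressor, at 32.9, 26.9 and 14.4 (-0.90). Skil, a repressor of Smads, stood at 97.6, 90.1 and 62.6 CPM (-0.53). Fn1, fibronectin, stood at 85.6, 90.8 and 58.8 CPM (-0.63), and with TMM it was not past the fold. Of the ligands and receptors, 7 of 13 were compared, none was past the fold and all 7 lay under 0, with a median of -0.07 (above 0 with TMM, and -0.18 for the 6 at 20 CPM in both mutants) and sums of 389, 368 and 321 CPM. Tgfb2 stood at 42.2, 54.4 and 40.7 CPM (-0.42). The targets thus lay further under 0 than their ligands and receptors. Smad7 is on the Bmp and Tgfb lists and Tgfbi on the joint and Tgfb lists, and together the joint, Bmp target and Tgfb target lists held 15 of the 92 lower genes, against 32 of all 5605. At 20 CPM in both mutants, 52 genes were lower, 5 of them on the joint, 3 on the Bmp target and 3 on the Tgfb target list. Of all 5241 such genes, 10, 7 and 12 were on these lists. These lists too were chosen with earlier results of these data known.

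The largest falls also included genes outside the lists. Hes1, a bHLH repressor downstream of Notch, stood at 274, 346 and 107 CPM, a log2 ratio of -1.69 (-1.73 to -1.65). Snai1, a zinc finger repressor, stood at 122, 126 and 61.2 CPM (-1.04). Gadd45b stood at 292, 176 and 87.3 CPM (-1.01) and Gadd45g at 139, 88.7 and 44.9 (-0.98), both small stress sensor proteins. Hes1 and Snai1 were low in the DCKO-labelled library alone, and the Gadd45 genes stepped down from control to DCKO-labelled cells. C1qtnf3, a secreted protein of cartilage, stood at 175, 63.3 and 26.9 CPM (-1.23), and Igfbp7, which binds IGF, at 56.6, 43.5 and 20.9 (-1.05). Pop4, a subunit of RNase P, stood at 22.4, 38.5 and 18.7 CPM (-1.04), high in the one-allele-labelled library.

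Sox9, the main transcription factor of chondrocytes, stood at 511, 475 and 310 CPM in cartilage cells, a log2 ratio of -0.62 (-0.64 to -0.59), and -0.54 with TMM, which is short of 1.5-fold. Sox5 and Sox6, its partners, had log2 ratios of -0.12 and -0.08. Of the chondrocyte factor and hypertrophy list 14 of 20 were compared, 3 were lower and none higher, with a median of -0.19 and sums of 1450, 1508 and 1185 CPM. Of the 12 at 20 CPM in both mutants 1 was lower, Sox9, with a median of -0.10. Ihh, the hedgehog ligand of prehypertrophic cells, stood at 20.1, 30.8 and 30.3 CPM, and Mef2c, a factor of hypertrophy, at 105, 165 and 133. The other 2 lower members were bone matrix genes found in few cells. Ibsp, a bone matrix protein, stood at 0.164, 28.6 and 2.53 CPM (-3.50), and 10 cells held 98.5% of its UMIs in the one-allele-labelled and 86.5% in the DCKO-labelled library. Spp1, another such protein, stood at 13.4, 21.1 and 5.07 CPM (-2.06), and 10 cells held 51.4% and 53.9% of its UMIs. The ratio of Ibsp therefore describes a few cells and not the group.

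Cartilage matrix genes had 17 of 19 members compared, 1 lower and none higher, and a median of -0.13, with sums of 19595, 17675 and 16636 CPM. The lower gene was Fmod, fibromodulin, which reached 20 CPM in the one-allele-labelled library only. Of the 16 at that level in both mutants none was lower, with a median of -0.13. Col2a1 stood at 5988, 5799 and 5140 CPM (-0.17). Connective tissue matrix genes had 17 of 20 compared and 3 lower, and a median of -0.33, with sums of 2900, 2466 and 2001 CPM. Col6a1 and Col6a2, chains of the collagen around chondrocytes, stood at 64.5 and 41.1 CPM (-0.65) and at 46.3 and 27.0 CPM (-0.78) in the one-allele-labelled and DCKO-labelled libraries, and with TMM Col6a1 was not past the fold. Tendon and ligament genes had 5 of 13 compared, 1 lower, and a median of -0.36. Of the 4 at 20 CPM in both mutants none was lower, with a median of -0.22. Matrix RNA thus differed less than the joint and Bmp lists did.

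Glycolysis was not lower. Of 16 members 13 were compared, none was past the fold, the median log2 ratio was 0.01 (-0.01 with a total that leaves out mitochondrial, ribosomal protein and haemoglobin genes), and the sums were 7217, 8355 and 8594 CPM. Gapdh stood at 1934, 2360 and 2510 CPM (0.09), Aldoa at 605, 909 and 929 (0.03) and Ldha, which turns pyruvate into lactate, at 1342, 1367 and 1475 (0.11). Pkm stood at 650, 671 and 643 CPM (-0.06, above 0 with TMM) and Eno1 at 183, 184 and 167 (-0.14). The mutants were above the control for Gapdh and Aldoa and near each other. Hk2, the hexokinase that traps glucose in the cell, stood at 129, 224 and 154 CPM (-0.54). Targets of HIF, the factor of low oxygen, had 1 of 22 compared genes past the fold (of 38 members), a median of -0.05 (above 0 with TMM), and sums of 4776, 5960 and 5869 CPM. The gene was Car9, a carbonic anhydrase, at 8.14, 39.9 and 22.4 CPM (-0.83). Hk2 and Car9 were thus highest in the one-allele-labelled library.

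Genes of lactate and pyruvate handling (median 0.05), of the pentose phosphate path (0.12), of fatty acid oxidation and glutamine use (0.08), of hexosamine and glycosaminoglycan synthesis (-0.01, above 0 with TMM) and of sterol and lipid synthesis (-0.21) had no member past the fold in cartilage cells. The sterol genes summed to 1243, 1083 and 965 CPM. The same held for S phase genes (median -0.10; 2373, 1974 and 1929 CPM), G2 and M phase genes (-0.14; 5843, 4718 and 4445 CPM), p53 targets (-0.01; above 0 with TMM), immediate-early genes (-0.08) and interferon genes (-0.06, above 0 with TMM). Cell cycle RNA was thus lower in both mutants than in the control and alike between the mutants. Cdkn1a, a cell cycle inhibitor under p53, stood at 53.5, 102 and 110 CPM (0.11).

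The 13 protein genes of the mitochondrial genome had a median of -0.39 and 2 lower, mt-Nd3 at 423, 469 and 230 CPM (-1.03) and mt-Nd6 at 55.7, 25.8 and 15.5 (-0.73), with sums of 22545, 24793 and 21004. The 75 nuclear genes of oxidative phosphorylation had a median of 0.03 and sums of 23748, 23951 and 23924 CPM, with 2 lower, Atp5k at 235, 312 and 195 (-0.68) and Ndufa3 at 131, 166 and 111 (-0.59). Ribosomal protein genes, 80 of 82 compared, had a median of 0.11, sums of 242241, 275304 and 283589 CPM, and 1 lower, Rps29 at 3765, 6061 and 3854 (-0.65). Atp5k and Ndufa3 were highest in the one-allele-labelled library and lowest in the DCKO-labelled one. Rps29 was high in the one-allele-labelled library, with the control and the DCKO-labelled library alike. Rps29 did the same in mesenchyme cells, at 3725, 5842 and 3777 CPM (-0.63). The longest transcripts of Atp5k, Ndufa3 and Rps29 have 563, 782 and 461 bases. The 22 compared genes with a longest transcript under 500 bases had a median of -0.25, none higher and 3 lower, and sums of 17633, 23595 and 19160 CPM in cartilage cells. From 500 to 1000 bases the median of 340 genes was -0.00 (2 higher, 13 lower), to 2000 bases that of 1063 genes 0.03 (13 and 12), to 4000 bases that of 2093 genes -0.01 (29 and 26), and above that the median of 2084 genes was -0.09 (3 and 38). Of the 23 genes past the fold on the lower side in both cell groups, 9 had transcripts under 1000 bases, with a median of 1200. The part of transcript length in the other results was not tested beyond these values.

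**Figure D2:**
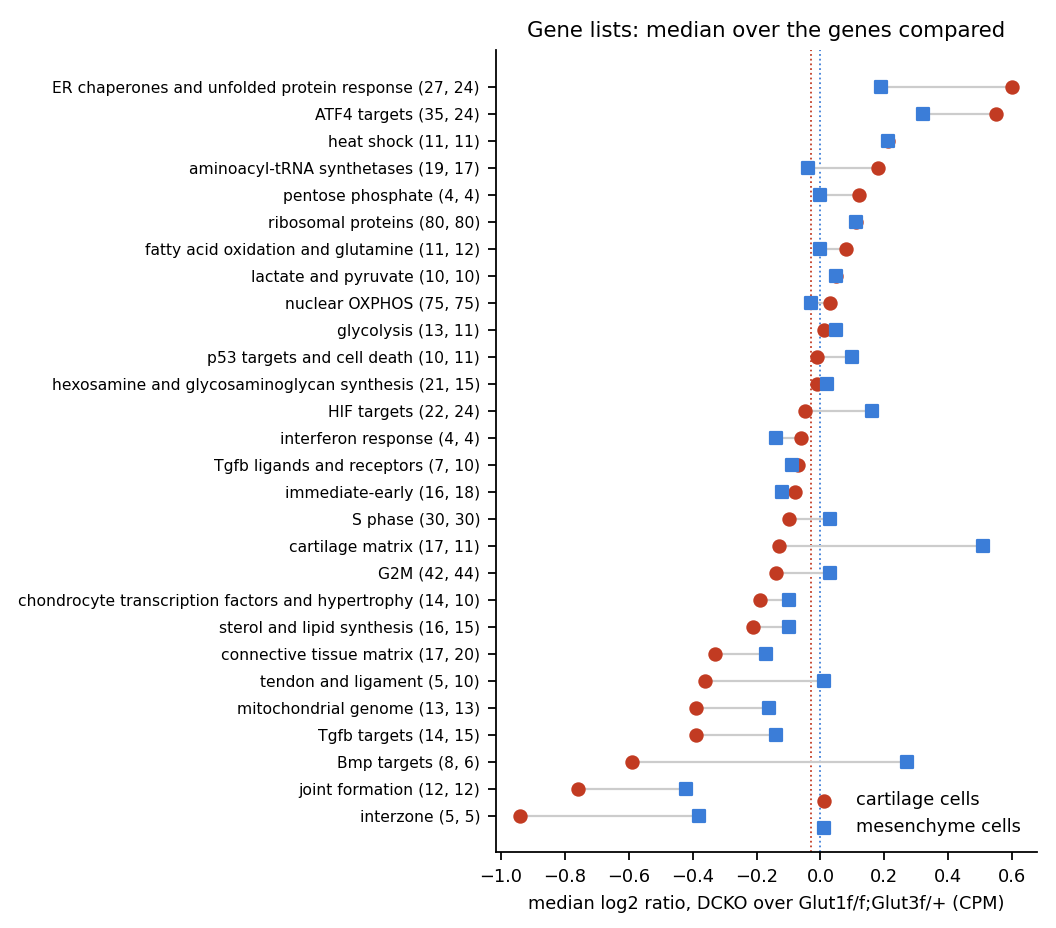
Median log2 ratio (DCKO-labelled over one-allele-labelled) of each gene list in cartilage cells (circles) and mesenchyme cells (squares), with the numbers of genes compared in brackets and dotted lines at the medians of all genes (-0.03 and 0.00). In cartilage cells the ER list (0.60) and ATF4 list (0.55) stand at one end and the joint formation list (-0.76) and interzone genes (-0.94) at the other.

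To describe how cartilage cells varied among themselves, they were split by their Matn1 and Acan UMIs into 2 to 4, 5 to 9, 10 to 19 and 20 or more, bins chosen after the data were seen. The rule used the same UMIs, and the bins also sort cells by depth: median UMIs were 6050.5 in the first bin of one-allele-labelled and 5297.5 of DCKO-labelled cells, and 11823 and 11713 in the last. ER genes summed to 7168, 7505, 7864 and 10711 CPM in the 4 bins of one-allele-labelled cells and to 10170, 10465, 11062 and 16178 in DCKO-labelled cells, while the control had 7971, 8020, 8242 and 9923. ATF4 genes summed to 2501, 2787, 2924 and 3606 CPM against 3308, 3575, 3757 and 4973. Both lists were higher in DCKO-labelled cells in every bin, and most so in absolute terms in cells with 20 or more marker UMIs. Joint formation genes summed to 2273, 1631, 1082 and 662 CPM in one-allele-labelled cells and 1162, 891, 746 and 492 in DCKO-labelled cells. Gdf5 stood at 74.3, 46.5, 24.6 and 9.38 CPM against 22.4, 16.3, 10.6 and 5.99. The joint genes thus differed most in cells with 2 to 4 marker UMIs, where their level was highest. In that bin cartilage matrix genes summed to 7494 CPM in one-allele-labelled and 9521 in DCKO-labelled cells, and connective tissue matrix genes to 4875 and 3908. The cells of the bin were thus not alike in the 2 libraries, and the part of this in the trend was not tested. Id1 was lower in each bin, at 293, 413, 398 and 398 CPM against 155, 184, 179 and 156. Sox9 was alike in the first bin, at 375 against 364 CPM, and far apart in the last, at 482 against 276.

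**Figure D3:**
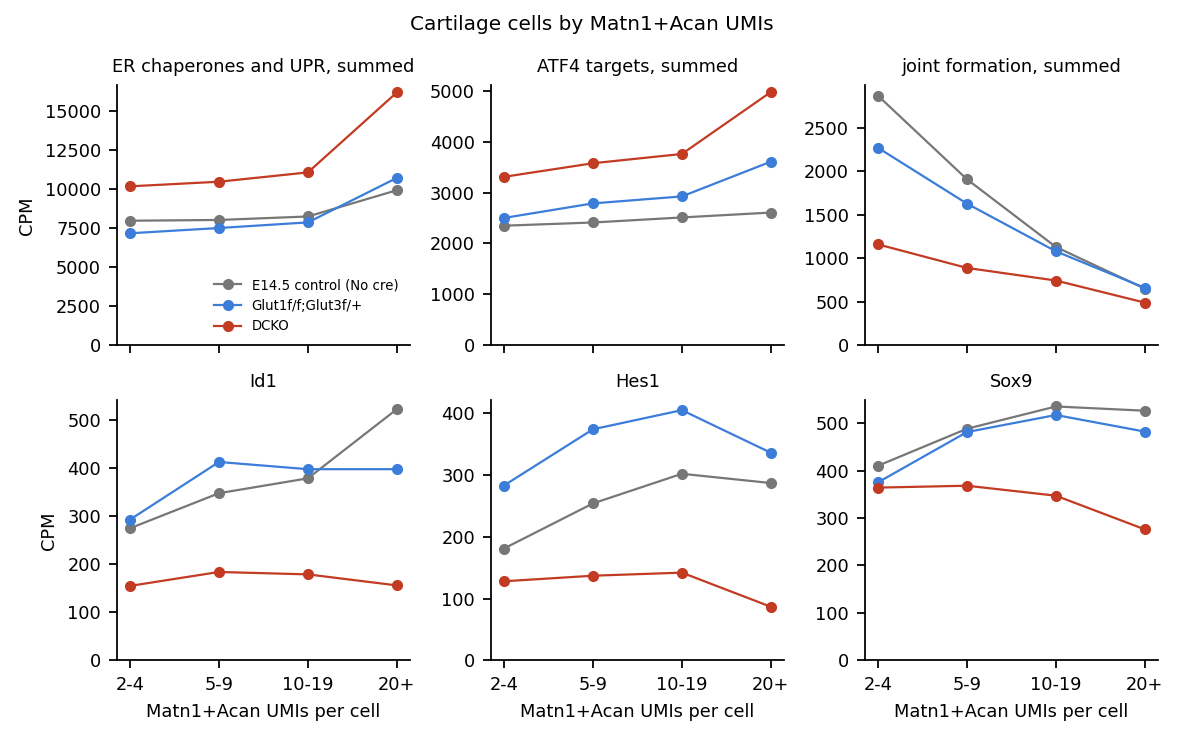
Levels in CPM of 3 gene lists (summed) and of Id1, Hes1 and Sox9 in cartilage cells, by the Matn1 and Acan UMIs of the cell (2 to 4, 5 to 9, 10 to 19, 20 or more), in the control, one-allele-labelled and DCKO-labelled libraries. ER genes reach 16178 CPM in the last DCKO-labelled bin against 10711 in the one-allele-labelled one, and Sox9 parts between the mutants toward the last bin.

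Mesenchyme cells showed a smaller ER and ATF4 difference and more cartilage RNA in the DCKO-labelled library. Of 6065 genes compared, 50 were higher (0.824%) and 78 lower (1.29%), 128 in all (2.11%), with a median log2 ratio of 0.00 and 5th and 95th percentiles of -0.35 and 0.31. Both cell groups come from the same libraries and share their free RNA, so the mesenchyme comparison is no repeat of the cartilage one. The difference between the 2 cell groups was not tested.

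Cartilage matrix genes were the list with the most higher members in mesenchyme cells. Of 11 compared, 5 were higher and 1 lower, 10 lay above 0, the median was 0.51, and the sums were 1697, 1503 and 2397 CPM. Matn4, a matrilin of cartilage, stood at 169, 129 and 370 CPM, a log2 ratio of 1.52 (1.44 to 1.61). Col9a3 and Col9a1, chains of the collagen on the surface of cartilage fibrils, stood at 267, 212 and 444 CPM (1.07; 1.0 to 1.14) and at 79.1, 74.7 and 137 CPM (0.87). Col2a1 stood at 384, 376 and 592 CPM (0.65; 0.60 to 0.71). Cnmd, chondromodulin, stood at 53.9, 35.4 and 63.7 CPM (0.85). For each of these the DCKO-labelled library was the highest. Otor, a secreted protein of cartilage, stood at 37.0, 46.9 and 106 CPM (1.18; 1.03 to 1.33), and Sox9 at 183, 134 and 186 CPM (0.47). These cells hold at most 1 UMI of Matn1 and Acan, and the median DCKO-labelled mesenchyme cell was shallower, at 5015 UMIs against 5934.5 in the one-allele-labelled and 6215 in the control. In the cells of neither group, the 12 cartilage check genes summed to 1560, 1429 and 2633 CPM, so the DCKO-labelled library was high there too. In cells that should lack cartilage RNA, the cartilage matrix list summed to 162, 171 and 137 CPM in muscle lineage cells, 447, 219 and 132 in endothelial cells and 163, 179 and 298 in macrophages. The DCKO-labelled library was thus lowest in muscle lineage and endothelial cells and highest in macrophages, at levels far under those of mesenchyme cells. The part of cells that missed the cartilage threshold through low depth was not tested.

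Joint formation genes had 12 compared in mesenchyme cells, 3 lower and none higher, with a median of -0.42 and sums of 3257, 1974 and 1509 CPM. Without Barx1, which reached 20 CPM in the one-allele-labelled library only, 2 of 11 were lower, with a median of -0.38. Here the step from control to one-allele-labelled cells was larger than the step between the mutants. Osr2 stood at 128, 80.7 and 35.4 CPM, a log2 ratio of -1.19 (-1.38 to -1.01), and Barx1 at 133, 52.4 and 16.4 (-1.68; -1.95 to -1.42). Htra1 stood at 316, 130 and 83.4 CPM (-0.64). All 3 stepped down from control to one-allele-labelled to DCKO-labelled cells. Gas1 stood at 637, 374 and 263 CPM (-0.51) and Sfrp2 at 1028, 641 and 553 (-0.21). Gdf5 stood at 54.8, 26.5 and 20.3 CPM (-0.38; -0.65 to -0.12). Of the 5 interzone genes 1 was lower, with a median of -0.38. Prg4 and Wnt9a were under the minimum level, Prg4 at 7.19, 7.53 and 4.17 CPM and Wnt9a at 7.92, 8.88 and 4.61.

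Bmp targets were not lower in mesenchyme cells: of 6 compared none was past the fold, with a median of 0.27 and sums of 1267, 1182 and 1217 CPM. Id1 stood at 191, 162 and 127 CPM (-0.35), Id2 at 158, 124 and 168 (0.44) and Smad7 at 115, 84.7 and 104 (0.29). Hes1 stood at 144, 206 and 138 CPM (-0.58; -0.68 to -0.48), and Snai1 at 32.1, 26.6 and 33.1 (0.31). Tgfb targets had 15 compared, none past the fold, and a median of -0.14, with sums of 3664, 3752 and 3351 CPM. Id1, Smad7, Hes1 and Snai1, all past the fold in cartilage cells, were thus within 1.5-fold in mesenchyme cells. Hes1 was only just so, with an interval that spans 1.5-fold. Igfbp7 was past it in mesenchyme cells too, at 120, 90.6 and 52.5 CPM (-0.79), as were 2 genes chosen after their values were seen, Cdon, a hedgehog co-receptor, at 64.7, 42.7 and 27.0 (-0.66), and Spry2, an inhibitor of receptor kinase signals, at 33.9, 28.4 and 17.8 (-0.67).

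ER genes had 24 compared in mesenchyme cells, 1 higher and none lower, with a median of 0.19 and sums of 8068, 6705 and 7819 CPM. Hspa5 stood at 858, 659 and 822 CPM (0.32; 0.27 to 0.37). The gene past the fold was Creld2, at 41.9, 33.1 and 51.3 CPM (0.63), and it was not past it with stricter gates. The DCKO-labelled mesenchyme cells were thus near the control and the one-allele-labelled cells low, unlike in cartilage cells. ATF4 genes had 24 compared, 2 higher, and a median of 0.32, with sums of 2112, 2118 and 2496 CPM. Asns stood at 27.2, 30.8 and 50.4 CPM (0.71; 0.51 to 0.91), and 0.07 with stricter gates (Matn1 and Acan at 5 or more for cartilage, Prrx1 at 2 or more for mesenchyme). Ddit4, an inhibitor of mTORC1, stood at 29.6, 20.5 and 31.2 CPM (0.61), and was short of 1.5-fold without the cells holding other markers. Nupr1 stood at 53.8, 33.5 and 24.3 CPM (-0.46), the other way from cartilage cells.

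Heat shock genes had 2 of 11 compared higher in mesenchyme cells, with a median of 0.21 and sums of 7889, 7369 and 8560 CPM. Hspa1a stood at 28.0, 27.2 and 49.3 CPM (0.86) and Hsph1, a partner of Hsp70, at 39.9, 25.5 and 39.2 (0.62). Glycolysis genes had none of 11 past the fold and a median of 0.05, with sums of 4904, 4083 and 4167 CPM, so both mutants were under the control. The median was 0.16 for HIF targets, with 1 of 24 higher and sums of 3350, 2840 and 2840 CPM. Cdkn1a, the 1 higher p53 target of 11, stood at 35.8, 32.0 and 71.9 CPM (1.17; 0.99 to 1.35), so it was high in DCKO-labelled mesenchyme cells alone.

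Other rises in mesenchyme cells lay at low levels. Lbhd2 stood at 17.2, 15.4 and 35.9 CPM (1.22), and AC149090.1 at 38.4, 30.8 and 66.9 (1.12). Lef1, a factor of Wnt signalling, stood at 7.92, 10.5 and 20.9 CPM (0.98), and Wif1, a secreted Wnt inhibitor, at 22.1, 21.1 and 41.6 (0.98). Klf5, a zinc finger factor, stood at 14.3, 12.1 and 23.8 CPM (0.97), Ypel2 at 17.7, 18.4 and 35.7 (0.96) and Snhg16, a long noncoding RNA, at 31.1, 25.1 and 47.7 (0.93). In all of these the DCKO-labelled library was 1.5-fold or more over both others. Some were more abundant in cartilage cells: Lbhd2 stood there at 237, 174 and 190 CPM, Lef1 at 57.1, 35.5 and 36.0 and Klf5 at 46.2, 39.2 and 54.0. AC149090.1 was not, at 27.4, 21.0 and 39.3 CPM. The part of cartilage RNA in these rises was not tested.

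The largest falls in mesenchyme cells varied in their pattern. Some genes were found in few cells: Ibsp had 931 UMIs in 9 one-allele-labelled cells and 1 UMI in the DCKO-labelled library (-9.39; -14.70 to -6.91), and Acta2, the actin of smooth muscle, stood at 43.2, 112 and 21.4 CPM (-2.39) with UMIs in 92 one-allele-labelled and 32 DCKO-labelled cells. Others were low step by step from the control. Ndufa4l2, a HIF-induced mitochondrial protein, stood at 123, 43.6 and 14.7 CPM (-1.57), and Tm4sf1, a membrane protein, at 163, 65.8 and 25.8 (-1.35). Lrrc17, a leucine-rich repeat protein, stood at 149, 72.7 and 31.3 CPM (-1.22). Each of these 3 was highest in the control and lowest in DCKO-labelled cells. Chodl, a membrane lectin, stood at 25.9, 26.2 and 9.56 CPM (-1.46) and Col8a1 at 29.5, 33.9 and 14.1 (-1.27), low in the DCKO-labelled library alone. Pcp4, a calmodulin regulator, stood at 11.4, 40.5 and 8.46 CPM (-2.26) and Tmem100, a membrane protein, at 32.1, 59.4 and 25.9 (-1.20), both high in the one-allele-labelled library. Scrg1 and Rbp4, the 2 others of the 12 largest falls, had ratios of -1.34 and -1.31.

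Connective tissue matrix genes had 20 compared in mesenchyme cells, 1 lower and a median of -0.17, with sums of 8169, 8621 and 7814 CPM. The gene was Col6a2, at 143, 138 and 85.0 CPM (-0.70). Decorin, Dcn, a small proteoglycan, stood at 227, 165 and 118 CPM (-0.48), and lumican, Lum, at 180, 214 and 278 (0.38). Tendon and ligament genes had 10 compared, 2 lower and a median of 0.01 (under 0 with stricter gates), with sums of 1468, 1486 and 1472 CPM. The lower genes were Tnmd, tenomodulin, at 22.3, 43.0 and 23.6 CPM (-0.86) and Fmod, fibromodulin, at 72.6, 40.9 and 26.8 (-0.61). Tnmd was high in the one-allele-labelled library, and Fmod stepped down from the control.

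**Figure D4:**
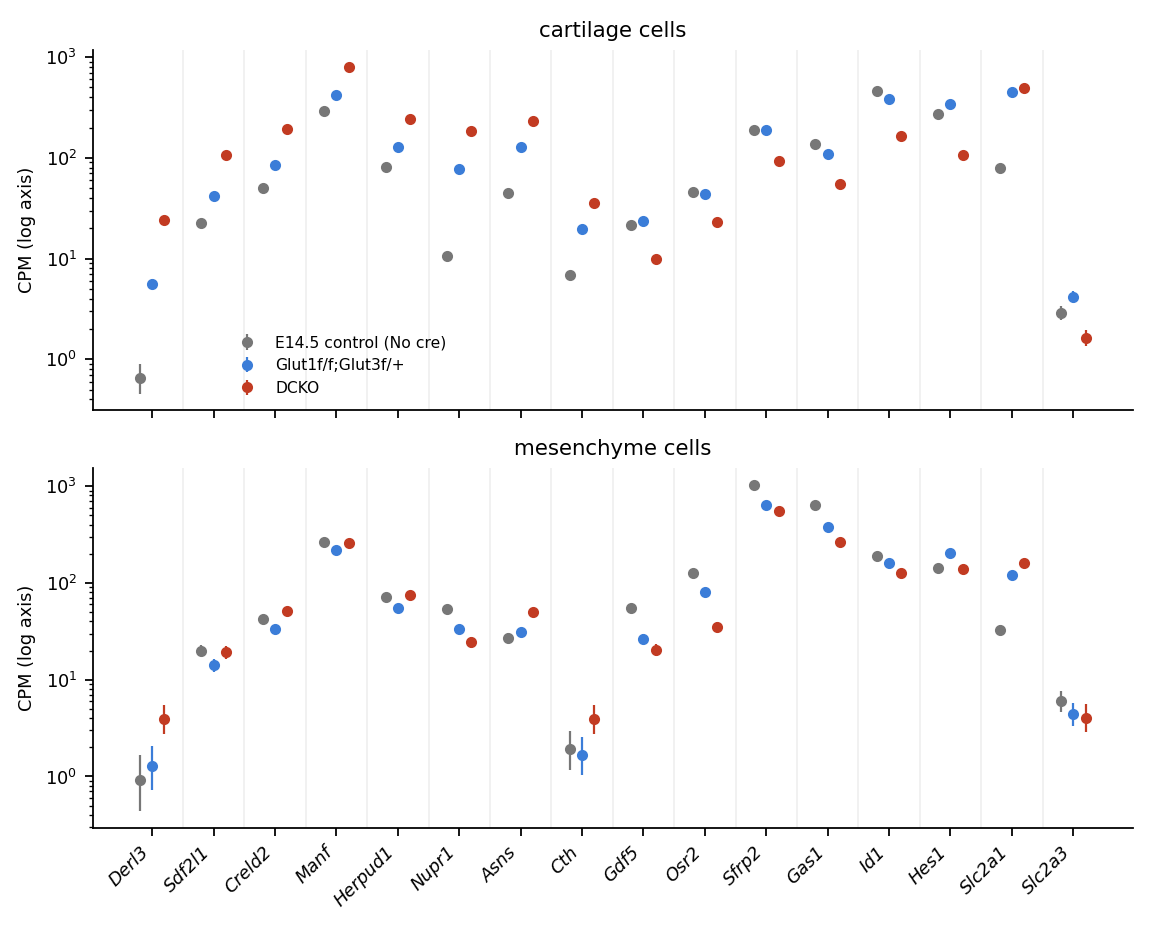
CPM on a log axis of 16 genes in the control, one-allele-labelled and DCKO-labelled libraries, in cartilage cells (upper) and mesenchyme cells (lower), with bars for 95% Poisson intervals. In cartilage cells Creld2 is at 49.7, 85.5 and 192 CPM and Id1 at 456, 388 and 163. In mesenchyme cells Gas1 is at 637, 374 and 263.

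RNA of other cell types moved between the libraries as well, and its part in the results was not tested. The 9 erythroid markers summed to 1569, 1510 and 534 CPM in cartilage cells, with Hbb-bs most abundant (646, 568 and 301), and to 844, 2264 and 2008 in mesenchyme cells, where Hbb-bh1 was at 0 in the DCKO-labelled library. The 9 skeletal muscle markers summed to 21.8, 48.2 and 5.35 CPM in cartilage cells (Tnnt1 most abundant, at 6.18, 11.3 and 1.79) and 56.4, 36.1 and 19.9 in mesenchyme cells. The 7 endothelial markers summed to 22.2, 23.6 and 22.7 CPM in cartilage (Egfl7 most abundant) and 41.1, 88.3 and 86.9 in mesenchyme cells (Emcn). The 8 macrophage markers summed to 17.5, 15.6 and 19.5 CPM and to 13.1, 64.9 and 43.2, with Cd68 most abundant in both groups and C1qa at 0 in control mesenchyme cells. The 6 glial or neuronal markers summed to 39.8, 46.6 and 43.6 CPM in cartilage and 39.3, 36.5 and 26.0 in mesenchyme cells (Stmn2 most abundant in the mutants there). The 5 epidermal markers summed to 27.3, 23.7 and 21.2 CPM in cartilage cells, where Krt10 was most abundant and Krt5 was at 0 in both mutants, and to 42.7, 46.7 and 49.3 in mesenchyme cells, where Krt14 was at 0 in all 3. The 5 mural cell markers summed to 198, 192 and 180 CPM and to 95, 103 and 64.7. Blood and muscle RNA in cartilage cells was thus lowest in the DCKO-labelled library. Of the 92 lower genes there 6 were on these marker lists, against 8 of all 5605, and the 6 were all the erythroid markers compared, while no muscle marker reached the minimum level. Few cells held many of these UMIs. In one-allele-labelled cartilage cells, 10 cells held 83.8% of Hbb-bs UMIs, and for the muscle markers Actc1 and Acta1 69.9% and 86.8%. In DCKO-labelled cartilage cells 10 cells held 96.3% of Hbb-bs UMIs. For these genes the levels thus describe a few cells more than the group.

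Cells outside the known reach of Prx1Cre also show how far the libraries differ, although recombination in these cells was not measured. The ER list summed to 6054, 5778 and 6930 CPM in endothelial cells, 3667, 3388 and 4368 in muscle lineage cells and 5568, 4986 and 5590 in macrophages. The ATF4 list summed to 1845, 2015 and 1735 CPM, 1897, 1943 and 1919, and 2724, 2870 and 2894 in the same cell types. Hspa5 stood at 711, 678 and 713 CPM in endothelial and 531, 426 and 586 in muscle lineage cells. The ER list was thus highest in the DCKO-labelled library in these cells too, by less than in cartilage cells (9453 against 13921 CPM in the mutants) and by about as much as in mesenchyme cells (6705 against 7819), and the mutants were near each other for the ATF4 list, with the DCKO-labelled library lower in endothelial and muscle lineage cells and higher in macrophages. Id1 stood at 176, 128 and 336 CPM in endothelial cells and 507, 333 and 316 in muscle lineage cells, and 23.1, 22 and 56.0 in macrophages. Hes1 stood at 282, 174 and 412 CPM in endothelial cells, 158, 179 and 111 in muscle lineage cells and 33.5, 60.2 and 63.6 in macrophages. In endothelial cells and macrophages both were highest in the DCKO-labelled library, and in muscle lineage cells both were lowest there. Between the mutants the intervals overlapped for both genes in macrophages and for Id1 in muscle lineage cells. These groups are small, at most 328 cells in a library.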

How the data were processed

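Single-cell 3′ v3.1 libraries were sequenced on a NovaSeq. The deposited values are UMI counts per gene and cell barcode, made by the authors with Cell Ranger 6.1.2 (per the file headers) on build mm10, and the processing notes also name Seurat 3. The libraries held 84188147, 97110697 and 91574038 UMIs in 9707, 11690 and 11602 barcodes (control, one-allele-labelled, DCKO-labelled). The rule removed 89, 80 and 67 cells over 6000 genes, 94, 112 and 66 under 200, and 226, 264 and 175 over 10% mitochondrial UMIs. Doublets were kept. UMIs were summed per group and library (cartilage 55035955, 61612416 and 67637953; mesenchyme 10980090, 12611301 and 9104857) and divided by the total. The mesenchyme totals are smaller, so intervals are wider there. Intervals are exact conditional for ratios, exact Poisson for CPM and Clopper-Pearson for shares. No test across genes was made, since each genotype has 1 library. The members and the gene lists were chosen with earlier results of these data known. Named genes were the genes of the rule, the 2 genes labelled as floxed and genes of the study's text. Also named were the 12 largest rises and falls per cell group, at 20 CPM and 100 UMIs or more. Predicted, mitochondrial, sex-linked and marker genes were left out of these, but Mid1, on the X chromosome, was kept. Members of lists of 20 genes or fewer, and the 4 largest past the fold of longer lists, were named too. Others are said to be chosen after their values were seen. Muscle, endothelial and macrophage reference cells were chosen by marker UMIs. Transcript lengths came from GENCODE vM21, matched for 32158 of 32285 gene identifiers (99.61%). Alternatives were other minimum levels and folds, TMM, another total, a mean over cells, stricter cell filters and gates, leaving out cells with markers of other cell types, and thinning. The code was tested on simulated data. Tools were Python 3.11.15, numpy 2.4.6, scipy 1.17.1, pandas 2.3.3, matplotlib 3.10.9, R 4.3.3 and edgeR 4.0.16. The E13.5 library was not used here, and the level of 1 marker gene is not reported here.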

Additional observations from a re-analysis of the deposited data

Results flagged for a closer look

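The log2 ratio of Hbb-bs, an adult beta globin, was -0.92 in cartilage cells and 0.67 in mesenchyme cells, past 1.5-fold in opposite directions in the 2 cell groups. That of Hbb-bt, the other adult beta globin, was -0.96 and 0.84. Without cells holding markers of other cell types the mesenchyme values were -0.09 and -0.18, no longer opposite to those in cartilage cells. Haemoglobin genes are among those markers, so this filter removes the cells rich in these UMIs by construction and decides nothing. With haemoglobin not counted among the markers, neither mesenchyme ratio changed sign. Levels of Hbb-bs were 646, 568 and 301 CPM in cartilage cells and 469, 466 and 742 in mesenchyme cells, and 10 cells held 83.8% and 96.3% of its UMIs in mutant cartilage cells and 95.9% and 97.9% in mutant mesenchyme cells. Levels of Hbb-bt were 178, 141 and 72.4 CPM and 70.7, 132 and 236. These are genes of red blood cells, and the difference between the cell groups was not tested.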

How the results depend on the processing

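Of 378 alternative values of list medians 340 moved by no more than the counting error of a typical member's ratio, and 38 moved further. No list median past the fold changed sign. Of 994 alternative values of named genes past the fold 928 were still past it and 66 were not. The cause was not tested for any of the changes below, apart from the counts, where a lower level or fold admits more genes by construction. Counts of higher and lower genes in cartilage cells (48 and 92) were 857 and 1820 with no minimum level beyond 10 UMIs, 30 and 39 with 50 CPM, 158 and 403 for a difference of 25%, 7 and 16 at 2-fold, and 59 and 61 with TMM. In mesenchyme cells (50 and 78) they were 820 and 1289, 23 and 30, 273 and 379, and 7 and 18, and 79 genes were higher with stricter gates. The log2 ratio of Slc2a1 in cartilage cells (0.13) was 0.16 as a mean over cells and 0.21 with TMM. That of Slc2a3 was -1.67 to -1.21 in cartilage cells. In mesenchyme cells it was -0.21 to 0.42, above 0 with stricter gates. Cartilage shares in the DCKO-labelled and one-allele-labelled libraries (63.1% and 54.0%) were 68.4% and 58.3% with 1000 to 6000 genes and 5% mitochondrial UMIs, 51.7% and 44.5% with stricter gates, 64.8% and 57.0% without cells with other markers, 64.7% and 57.3% when haemoglobin was not counted among those (an alternative chosen after seeing the data), and 61.4% and 50% after thinning. Mesenchyme shares (13.9% and 16.6%) were 6.52% and 7.67% with stricter gates and 12.3% and 14.2% after thinning. In cartilage cells the ATF4 median (0.55) was 0.63 as a mean over cells and 0.63 with TMM, the ER median (0.60) was 0.68 with TMM, the joint formation median (-0.76) was -0.57 with stricter gates, -0.61 without mitochondrial, ribosomal protein and haemoglobin genes in the total and -0.68 with TMM, and the Bmp median (-0.59) was -0.52 with TMM. Globin genes changed sign in mesenchyme cells: Hbb-bs to -0.09 and Hbb-bt to -0.18 without cells with other markers, Hba-x to 6.29 and Hbb-y to 5.16 when haemoglobin was not counted among the markers, and Hba-x to 0.18 as a mean over cells.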
